A study of Mus musculus with 4 samples.

Results

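The response to LPS in cells that were also given SEA was described from 2 arrays, SEA/LPS and SEA, as the signal with SEA/LPS over the signal with SEA alone. Every probe set that was no array control, carried 1 gene symbol and read above a signal of 33.3 on at least 1 of the 2 arrays was taken. Of 22690 probe sets, 13400 met this, and they name 8939 genes. A gene was then read from 1 probe set, the brightest on average over the series, which left 8920 measured genes of 12393 named by the array. Of these, 7570 read above 33.3 on both arrays, 425 on SEA/LPS alone and 925 on SEA alone, and the other 3473 genes lay at or under it on both.

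All samples were CD11c+ dendritic cells labelled IL10-/-, so that cells from animals deficient in interleukin 10 are also the controls. Dendritic cells take up antigen and show it to T cells to start their response. The cells spent 6 h in media, SEA, LPS or both together (SEA/LPS), 1 array for each of these 4 groups, and the labels give all of them the same lot. SEA is not spelled out in the labels and commonly stands for schistosome soluble egg antigen in such work. The labels do not give doses, the order in which SEA and LPS were added, the tissue, or whether cells of several mice were pooled. LPS over media, from the other 2 arrays, is set beside SEA/LPS over SEA for many genes and lists but not for all. The 2 comparisons share no array.

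LPS, a component of the outer membrane of Gram-negative bacteria, is bound by the receptor TLR4 with its partners CD14 and MD-2. An adaptor route through MyD88 leads to NF-kappaB and inflammatory cytokines, and a second route through TRIF leads to type I interferon, which acts back on the cell through its own receptor and induces antiviral genes. In dendritic cells the same signals start maturation, the switch from taking up antigen to presenting it with costimulatory molecules. Interleukin 10 normally restrains this response.

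With 1 array per group no test was possible, so there is no replicate check on any value below. Size alone, 2-fold or more, decides which genes are called higher or lower. Signals at or under 33.3, the floor, were set to 33.3 before log2 was taken, so where 1 of the 2 arrays lay at the floor the true difference may be larger, and it is written as at least N-fold. At the edge of the rule, 149 probe sets had their brighter signal within 1 unit above the floor and 111 within 1 unit below it. The SEA/LPS array had 57.3% of its probe sets above the floor and the other arrays 60.6% to 61.1%. Gapdh, read at both ends of its transcript as a gauge of RNA integrity, had a 3' over 5' ratio of 3.12 on SEA/LPS, 2.69 on SEA and 2.21 to 2.42 on the other 2 arrays, and the same ratio for Actb ran from 1.20 to 1.37. The part of these differences in the results was not tested. The hybridisation controls, RNAs added before hybridisation, read brighter on SEA/LPS than on SEA in 18 of 18 probe sets, by a median of 0.16 log2.

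Itgax, which encodes CD11c, read 2732 in media and 2181 with SEA, and 1851 with LPS and 2093 with SEA/LPS, and Cd74 and H2-Aa, both of class II presentation, were brighter still. Flt3 and Zbtb46, which mark dendritic cells apart from macrophages, were dim: Flt3 read 48.7 with SEA and under the floor with SEA/LPS, and Zbtb46 77.9 and 105. Macrophage genes were bright. Lyz2 (lysozyme) read 9572 with SEA and 10399 with SEA/LPS, and the 11 measured macrophage and monocyte markers summed to 25031 and 25300, with 1 higher (Fcgr1) and 1 lower (C1qb). Of 9 T cell markers on the array 3 were measured: Cd3d, Cd3e and Cd3g were under the floor on both arrays, while Zap70, a kinase of the T cell receptor, read 316 with SEA and 337 with SEA/LPS. Of 7 B cell markers 5 were measured, among them Cd22 (142 and 95.4) and Blk (95.8 and 61.0), and Cd79b and Pax5 were under the floor. Of 9 neutrophil markers 7 were measured, of which S100a8 was higher (90.1 and 182), and S100a9 was under the floor on both arrays. Of 7 endothelial markers 2 were measured, and Pecam1 and Cdh5 were under the floor. The summed signals of marker lists with SEA and with SEA/LPS were 494 and 467 for T cells, 416 and 329 for B cells, 225 and 286 for natural killer cells, 471 and 545 for neutrophils, and 158 and 198 for mast cells and basophils. They were 296 and 198 for fibroblasts and stroma and 263 and 389 for endothelium. The platelet genes Pf4 and Ppbp were bright, and erythroid and platelet markers summed to 4747 and 3313. Plasmacytoid dendritic cell markers summed to 413 and 1431, most of it from Bst2 and Tcf4, and Bst2 is also an interferon-stimulated gene. The part of these cells in the results was not tested, and in bulk RNA fewer cells of a type and less RNA per cell cannot be told apart.

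When LPS was present beside SEA, antiviral interferon-stimulated genes, inflammatory cytokines and chemokines showed most of the largest differences, all of them upward. Few lower genes differed by as much. In all, 442 of 8920 genes (4.96%) were higher by 2-fold or more with SEA/LPS than with SEA, and 604 (6.77%) were lower. At 4-fold or more there were 104 higher and 34 lower, at 8-fold 40 and 2, and at 16-fold 16 and 0. The median log2 difference over all measured genes was -0.19 (quartiles -0.53 and 0.15), so a list median is to be read against that value. In the same way, a list count is to be read against 4.96% higher and 6.77% lower. After scaling to the hybridisation controls, 328 of 9083 genes were higher and 1118 lower, and list counts under that scaling are to be read against these. How the calls divide turns with the scaling: the higher genes made up 42.3% of all calls on the values as deposited, 62.0% after scaling to the 75th percentile, 56.3% after quantile normalization and 22.7% after scaling to the hybridisation controls.

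**Figure D1:**
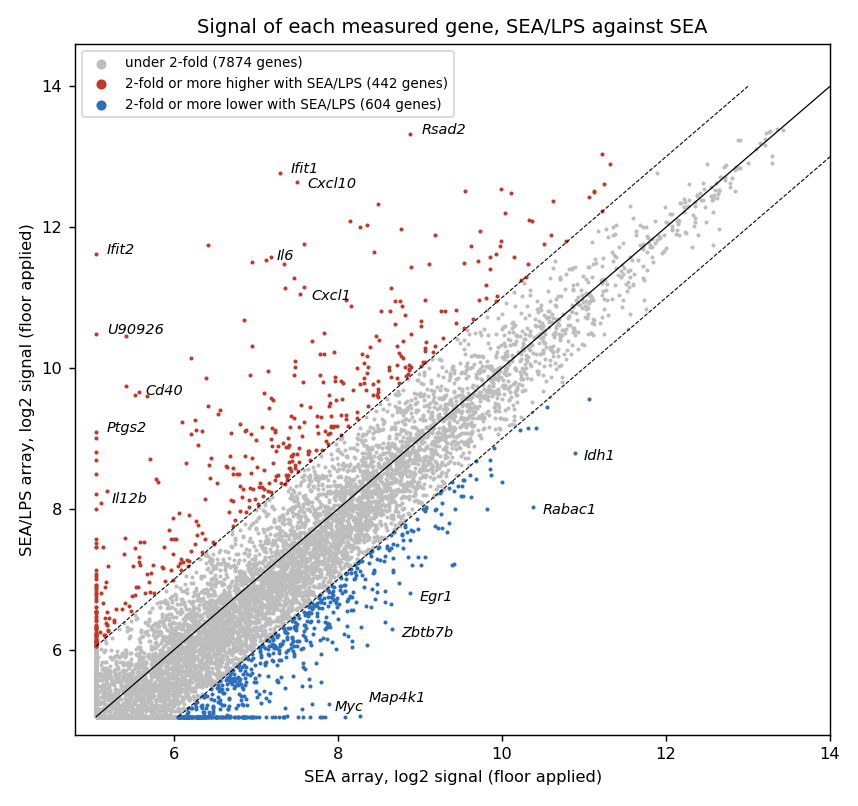
Each point is 1 of 8920 measured genes, with its log2 signal on the SEA array on the x axis and on the SEA/LPS array on the y axis, after the floor. Red points (442 genes) were 2-fold or more higher and blue points (604 genes) 2-fold or more lower with SEA/LPS, the solid line marks equal signal and the dashed lines 2-fold. Points on the left and lower edges lie at the floor on 1 array, and the red points reach farther from the line than the blue ones.

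The highest 10 genes among those above the floor on both arrays were 6 interferon-stimulated effectors, a pair of interferon-inducible GTPases (Gbp6 and Ifi47), the chemokine Cxcl10 and the cytokine Il6. Ifit1, whose protein binds foreign RNA caps, read 169 in media and 158 with SEA, and 8559.8 with LPS and 6988 with SEA/LPS. Both arrays with LPS were far above both without it, and SEA/LPS over SEA was 44.3-fold. Cmpk2, a mitochondrial nucleotide kinase, read 78.1, 85.6, 6487 and 3429 on the same arrays in the same order, a difference of 40.1-fold. Cxcl10, which attracts activated T cells, read 179, 182, 6830.2 and 6366, or 35.1-fold. For Cmpk2 the SEA/LPS signal was about midway between SEA and LPS alone on a linear scale, whereas Cxcl10 was nearly as bright with SEA/LPS as with LPS. Il6, the acute-phase cytokine, read 42.3, 139.5, 5389 and 2969.5, or 21.3-fold, from a higher start with SEA than in media.

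Among genes at the floor with SEA, the brightest with SEA/LPS was Ifit2, a relative of Ifit1. It read 19.5 in media and 29.6 with SEA, and 3487 with LPS and 3138 with SEA/LPS, at least 94.2-fold higher. U90926, a transcript of little described function, read 5.6 with SEA and 1430.1 with SEA/LPS (at least 42.9-fold). Ptgs2, the inducible cyclooxygenase of prostaglandin synthesis, read 16.7 and 546 (at least 16.4-fold), and Il15ra, which presents interleukin 15, 16.4 and 514 (at least 15.4-fold). The other probe sets of Ptgs2 and Il15ra gave smaller differences, 2.09 and 1.97 log2. Lcn2, an iron-sequestering protein, was at least 13.5-fold higher. Dhx58, a regulator of viral RNA sensing, was at least 12.5-fold higher on the probe set used and had a log2 difference of -0.47 on its other probe set, so its direction was not settled.

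The promoters of Ifit1, Rsad2, Cxcl10, Il6 and Cxcl1 are shown because these genes were among the highest and stand for the interferon-stimulated genes and the NF-kappaB-driven cytokines. The windows run from 250 bases before to 50 bases after the gene start, from RefSeq on mouse build GRCm38.p6, printed 5′ to 3′ on the gene's strand. Capitals mark matches on either strand to the core of the interferon-stimulated response element (letters GAAANNGAA) or to the kappaB consensus. The Ifit1 window (chr19:34640639-34640938, plus strand) holds 3 response element cores, of which the first 2 overlap, and Rsad2 (chr12:26456403-26456702, minus strand) holds 1. Cxcl10 (chr5:92348840-92349139, minus strand) holds 1 core and 3 kappaB matches, the last 2 overlapping. Il6 (chr5:30012864-30013163, plus strand) holds 1 kappaB match and Cxcl1 (chr5:90890995-90891294, plus strand) 2 that overlap.
Ifit1: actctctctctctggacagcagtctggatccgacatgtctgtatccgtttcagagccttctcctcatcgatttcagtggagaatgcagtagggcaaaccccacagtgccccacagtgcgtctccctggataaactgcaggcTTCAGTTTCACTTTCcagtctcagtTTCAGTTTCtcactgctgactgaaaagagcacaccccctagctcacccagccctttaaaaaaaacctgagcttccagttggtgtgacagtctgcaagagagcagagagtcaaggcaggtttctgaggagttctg
Rsad2: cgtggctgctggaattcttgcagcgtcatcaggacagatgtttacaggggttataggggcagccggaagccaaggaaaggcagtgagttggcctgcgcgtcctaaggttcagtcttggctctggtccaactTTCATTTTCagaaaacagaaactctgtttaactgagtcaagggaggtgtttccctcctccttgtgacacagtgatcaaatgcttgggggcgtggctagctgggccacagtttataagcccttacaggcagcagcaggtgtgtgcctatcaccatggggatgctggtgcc
Cxcl10: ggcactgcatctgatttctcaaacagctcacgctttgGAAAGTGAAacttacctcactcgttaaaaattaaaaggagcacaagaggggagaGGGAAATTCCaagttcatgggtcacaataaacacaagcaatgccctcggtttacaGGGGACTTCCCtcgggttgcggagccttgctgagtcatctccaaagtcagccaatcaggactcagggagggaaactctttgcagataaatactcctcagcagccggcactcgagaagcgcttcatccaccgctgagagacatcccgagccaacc
Il6: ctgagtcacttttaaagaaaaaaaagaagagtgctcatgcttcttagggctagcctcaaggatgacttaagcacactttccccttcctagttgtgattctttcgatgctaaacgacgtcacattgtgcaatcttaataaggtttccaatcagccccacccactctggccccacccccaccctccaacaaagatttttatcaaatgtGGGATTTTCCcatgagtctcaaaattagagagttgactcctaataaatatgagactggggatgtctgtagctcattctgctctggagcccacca
Cxcl1: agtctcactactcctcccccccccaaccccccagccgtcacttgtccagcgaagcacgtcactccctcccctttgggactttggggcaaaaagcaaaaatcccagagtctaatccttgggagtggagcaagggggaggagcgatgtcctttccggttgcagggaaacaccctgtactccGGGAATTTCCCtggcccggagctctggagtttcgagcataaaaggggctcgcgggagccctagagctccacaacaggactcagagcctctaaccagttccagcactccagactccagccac

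The same motifs were counted in the windows of every gene that had one, on both strands, each motif by itself, so that matches of different motifs may overlap. Windows were matched for 7258 of the 8920 measured genes, 354 of the 442 higher genes and 489 of the 604 lower genes. A gene counted once if any of its windows held the motif. Of the genes with a window, the response element core was in 18.9% of higher genes (67), 7.57% of lower genes (37) and 8.58% of all measured genes. Over all 32851 windows, counted singly, the share was 8.56%, which is a different measure from a share of genes. On the same basis, the kappaB consensus was in 17.2% (61) of higher genes, in 49 of the 489 lower genes, in 12.6% of all measured genes and in 8.46% of all windows. The AP-1 element, TGANTCA, was in 11.3% (40), 5.32% (26), 6.97% and 7.81% of the same sets, and the windows of Cxcl10, Rsad2 and Il6 hold 1 each, in lower case above. A match describes letters and not a site in use. The windows of Cmpk2, Ifi47 and Il12b hold no response element core, no kappaB match and no AP-1 element. Those of Ifit2 hold 1 kappaB match and no response element core. An absence says only that these letters are not in those windows. Every window printed above holds a match, so the printed windows do not represent all of the highest genes.

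Interferon-stimulated effectors were the list that differed most. Of 28 measured members, 26 were higher with SEA/LPS than with SEA and 0 lower, against 4.96% of all genes, and the median log2 difference was 2.67. The median was 2.46 to 2.88 under the other scalings. Without SEA it was 2.78, with 25 of 28 higher. Mx1, a GTPase that blocks influenza virus, read 121 in media and 124 with SEA, and 2653 with LPS and 2906 with SEA/LPS (23.4-fold). Rsad2 (viperin) was brightest of all, at 435, 473, 13688 and 10251 (21.7-fold), with 6.14 and 5.32 on its other probe sets in log2. Ifit3 read 36.5, 42.7, 1065 and 1404 (32.9-fold). For Mx1 and Ifit3 the SEA/LPS array was the brightest of the 4, and for Rsad2 the LPS array was.

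Usp18, which removes ISG15 from proteins and dampens interferon signalling, was 21.0-fold higher (146 with SEA and 3066 with SEA/LPS). Oasl1 was 17.7-fold higher from 162, and it was brighter with SEA than in media, where it read 20.1. Isg20, an exonuclease, was 16.9-fold and the guanylate-binding protein Gbp3 10.3-fold higher, both brighter with SEA/LPS (808 and 1277) than with LPS alone (619 and 538). Gbp6 read 42.9 with SEA and 857 with SEA/LPS (4.32 log2), and Ifi47 193 and 3459.5 (17.9-fold). Bst2 (tetherin), which holds budding virus at the membrane, was 3.45-fold higher. The 2 effectors under 2-fold were Adar (0.49 log2) and Oas2 (0.85 log2).

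The genes of interferon itself and of its signalling differed less than the effectors. Of 15 measured, 2 were higher and 0 lower, with a median of 0.29 log2, or 0.08 after scaling to the hybridisation controls. Irf7, the factor that amplifies interferon production, read 78.8 in media and 138 with SEA, and 1058 with LPS and 803 with SEA/LPS (5.84-fold), and the kinase Jak2 632 with SEA and 1797 with SEA/LPS (2.84-fold). Ifnb1, interferon beta, was dim on every array: 37.3 in media and 29.8 with SEA, and 129 with LPS and 51.4 with SEA/LPS (at least 1.54-fold). Irf2, Irf9 and Irf3 had log2 differences of 0.74, 0.67 and -0.62. Stat2, part of the interferon-activated transcription complex, read 78.6, 82.3, 755 and 101, a log2 difference of 0.29 with SEA present and 3.26 without, and its other probe set gave a 2-fold difference for SEA/LPS over SEA. The size of the Stat2 value thus depended on the probe set.

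Of 16 measured inflammatory cytokines, 8 were higher with SEA/LPS and 0 lower (median 1.39 log2, and 1.06 to 1.72 under the other scalings). Without SEA, 14 of 17 were higher. Inhba, a subunit of activin, was 14.3-fold higher (361 with SEA and 5170.2 with SEA/LPS), and Il1a 13.8-fold (164 and 2256). Il15, a growth factor for natural killer and memory T cells, was 8.76-fold higher (68.6 and 601). Tnf was 6.82-fold higher, at 43.6 in media and 81.3 with SEA, and 514 with LPS and 555 with SEA/LPS, so Tnf with SEA/LPS was as bright as with LPS.

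Members of the interleukin 12 family and Il10 had a smaller LPS difference with SEA present than without it. Il12b, which encodes the p40 subunit shared by interleukins 12 and 23, read 30.8 in media and 34.7 with SEA, and 1827 with LPS and 271 with SEA/LPS. It was 7.81-fold higher with SEA/LPS over SEA and at least 54.9-fold with LPS over media, and the other probe set gave 2.01 log2 for the first. Il23a, the p19 subunit, read 5.0, 5.4, 236 and 33.6, so it was well above the floor with LPS alone and just above it with SEA/LPS. Ebi3, a subunit of interleukins 27 and 35, read 415, 435, 1407 and 417, and Il12a, the p35 subunit, 36.2, 35.6, 114 and 53.8. In each of these the LPS array was the brightest of the 4.

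Il10, the gene the animals lack by label, read 37.9 in media and 52.1 with SEA, and 304 with LPS and 93.0 with SEA/LPS, a difference of 1.79-fold with SEA present and 8.01-fold without. The reading checks no label, since no source used here places its probe set relative to the change in the gene. Il1b, the pyrogenic cytokine processed by the inflammasome, was 5.86-fold higher (367, 1016, 7412 and 5953 in media, SEA, LPS and SEA/LPS). Il1rn, its receptor antagonist, was 3.81-fold higher.

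Chemokines had 11 of 18 measured members higher and 0 lower, with a median of 1.37 log2 (1.16 to 1.58 under the other scalings), against 12 of 19 and 1.72 without SEA. Cxcl1, which attracts neutrophils, read 77.2 in media and 187 with SEA, and 4491 with LPS and 2121 with SEA/LPS (11.4-fold over SEA). Cxcl11 and Cxcl9, which share the receptor CXCR3 with Cxcl10, were at the floor with SEA and at least 10.8-fold and 3.65-fold higher. Ccl3 and Ccl4, which attract monocytes and T cells, were 5.57-fold and 3.74-fold higher (403 to 2245 and 338 to 1262). Ccl22, which attracts regulatory and type 2 helper T cells, was 2.61-fold higher. Ccl24, an eosinophil attractant, had the lowest difference of the list, -0.74 log2.

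Genes of NF-kappaB and its inhibitors had 3 of 12 members higher and 0 lower (median 0.61 log2), against 4.96% and 6.77% of all genes. Nfkbiz, an inducible IkappaB protein needed for Il6 expression, read 51.9 in media and 93.4 with SEA, and 898 with LPS and 652 with SEA/LPS (6.98-fold). The subunit genes Rel and Relb were 2.92-fold and 2.07-fold higher. Relb was brighter with SEA/LPS (626) than with LPS (413), and Rel dimmer (191 and 449). Nfkbib was brightest with LPS alone, at 2045 against 552 with SEA/LPS, and was 0.73 log2 over SEA.

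Feedback inhibitors of the pathway had 5 of 19 members higher and 1 lower (median 0.64 log2), against 4.96% and 6.77% of all genes. The higher members were the RNase gene Zc3h12a (3.85-fold), Socs1 (3.44-fold) and Socs3 (3.24-fold), which block cytokine receptors, Traf1 (3.29-fold) and Tnfaip3 (2.29-fold), which encodes the deubiquitinase A20. Socs3 read 539 in media and 976 with SEA, and 4196 with LPS and 3159.8 with SEA/LPS. Dusp6, a phosphatase that switches off ERK, was lower, at 223 with SEA and 46.7 with SEA/LPS (-2.25 log2). Of 15 Toll-like receptors and adaptors, 3 were higher and 0 lower (median 0.49 log2), but 1 was higher and 1 lower on the hybridisation controls, and 1 was higher without probe sets able to cross-hybridise. The 3 were Tlr3, the receptor for double-stranded RNA (at the floor with SEA and 184 with SEA/LPS, at least 5.54-fold), the kinase Tbk1 (2.28-fold) and the adaptor Myd88 (2.18-fold). The other probe sets of Tlr3 and Tbk1 gave 0.42 and 0.72 log2, both under 2-fold. Cd14, the LPS co-receptor, was already brighter with SEA (3112) than in media (1559), read 5401 with LPS and 4499.5 with SEA/LPS, and was 0.53 log2 higher over SEA.

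Of 22 measured genes of maturation and costimulation, 11 were higher and 0 lower, with a median of 0.92 log2 (0.79 to 1.10 under the other scalings), against 15 of 22 and 1.44 without SEA. Cd40, the receptor through which helper T cells license dendritic cells, read 39.5 in media and 46.1 with SEA, and 1224 with LPS and 788 with SEA/LPS (17.1-fold). Marcksl1 and Fscn1, which encode actin-associated proteins of the mature cell, were higher by 2.97 and 2.87 log2. Cd200, Cd274 (PD-L1) and Ccr7, the receptor for homing to lymph nodes, were 4.98-fold, 3.39-fold and 2.97-fold higher. Cd86, a ligand of CD28, was 3.12-fold higher (193 and 603), with 629.7 on LPS alone. Icam1 read 929 with SEA and 2711 with SEA/LPS (2.92-fold), brighter than the 2126 of LPS alone. Tnfsf4 (OX40 ligand) was 0.78 log2 over SEA and brightest with LPS (421 against 244).

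Both arms of antigen presentation differed less. Class I presentation and the immunoproteasome had 6 of 14 members higher and 0 lower (median 0.56 log2, and 0.34 to 0.76 under the other scalings). Tap1, which carries peptides into the endoplasmic reticulum, read 444 in media and 415 with SEA, and 2670.1 with LPS and 1584 with SEA/LPS (3.82-fold). The proteasome genes Psmb10, Psmb9 and Psme1 were 2.75-fold, 2.41-fold and 2.15-fold higher, and the nonclassical gene H2-M3 2.07-fold. Of the 14 members, 9 were above 0 and 5 below. The class I heavy chain genes H2-K1 and H2-D1 were at -0.67 and -0.17 log2, both on probe sets able to cross-hybridise. The summed signal of the list was 26353 with SEA and 26549 with SEA/LPS, and 42454 with LPS. Tapbp (tapasin) was 2.07-fold higher on the probe set used, with a log2 difference of -0.78 on its other one. Psmb8, the third immunoproteasome subunit, read 1476, 1163, 2895 and 732, bright with LPS alone and dimmest with SEA/LPS (-0.67 log2 over SEA).

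Class II presentation had 0 of 13 members past 2-fold, and its median was -0.11 log2, or 0.09 after scaling to the 75th percentile, 0.04 after quantile normalization and -0.32 after scaling to the hybridisation controls. H2-Ab1, the class II beta chain, had the lowest value, at 5558 in media and 6114 with SEA, and 8109 with LPS and 3437 with SEA/LPS (-0.83 log2), and -1.45 and -1.28 on its other probe sets. H2-Eb1, H2-DMa and H2-DMb2 were at -0.42, -0.53 and -0.42 log2, and Rfx5, a regulator of class II genes, at 0.58. Among 23 uptake receptors, 3 were higher and 0 lower (median -0.17 log2, or 0.03 after scaling to the 75th percentile). After scaling to the hybridisation controls 2 were higher and 4 lower, with a median of -0.39. On the values as deposited, the higher ones were the C-type lectin Clec4e (2.61-fold), the scavenger receptor Marco (2.52-fold) and the Fc receptor Fcgr1 (2.29-fold). Clec10a and Trem2 were at -0.99 and -0.86 log2, both under 2-fold. Without SEA, 2 of 23 uptake receptors were higher and 8 lower (median -0.70 log2).

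Of 19 genes of nitric oxide, itaconate and prostaglandin metabolism, 6 were higher and 2 lower (median 0.29 log2, or 0.08 after scaling to the hybridisation controls). Beside Ptgs2, Gch1, which makes the cofactor of nitric oxide synthase, was 6.54-fold higher (581 with SEA and 3799.8 with SEA/LPS). Slc7a2, an arginine carrier, was 3.53-fold and Acod1, which makes itaconate, 2.97-fold higher. Nos2, the inducible synthase itself, read 2.9 in media and 2.6 with SEA, and 283 with LPS and 55.7 with SEA/LPS, at least 1.67-fold with SEA present and at least 8.50-fold without. Ncf1, a subunit of the phagocyte oxidase, was lower (1027 and 333, -1.62 log2, with -1.90 on its other probe set), as was Lta4h of leukotriene B4 synthesis (-1.29 log2). Alternative activation genes, typical of macrophages exposed to interleukin 4, had 1 of 20 higher (Ccl22) and 1 lower (Myc), with a median of -0.10 log2, or 0.10 after scaling to the 75th percentile. These counts were near the shares of all genes, 4.96% and 6.77%.

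**Figure D2:**
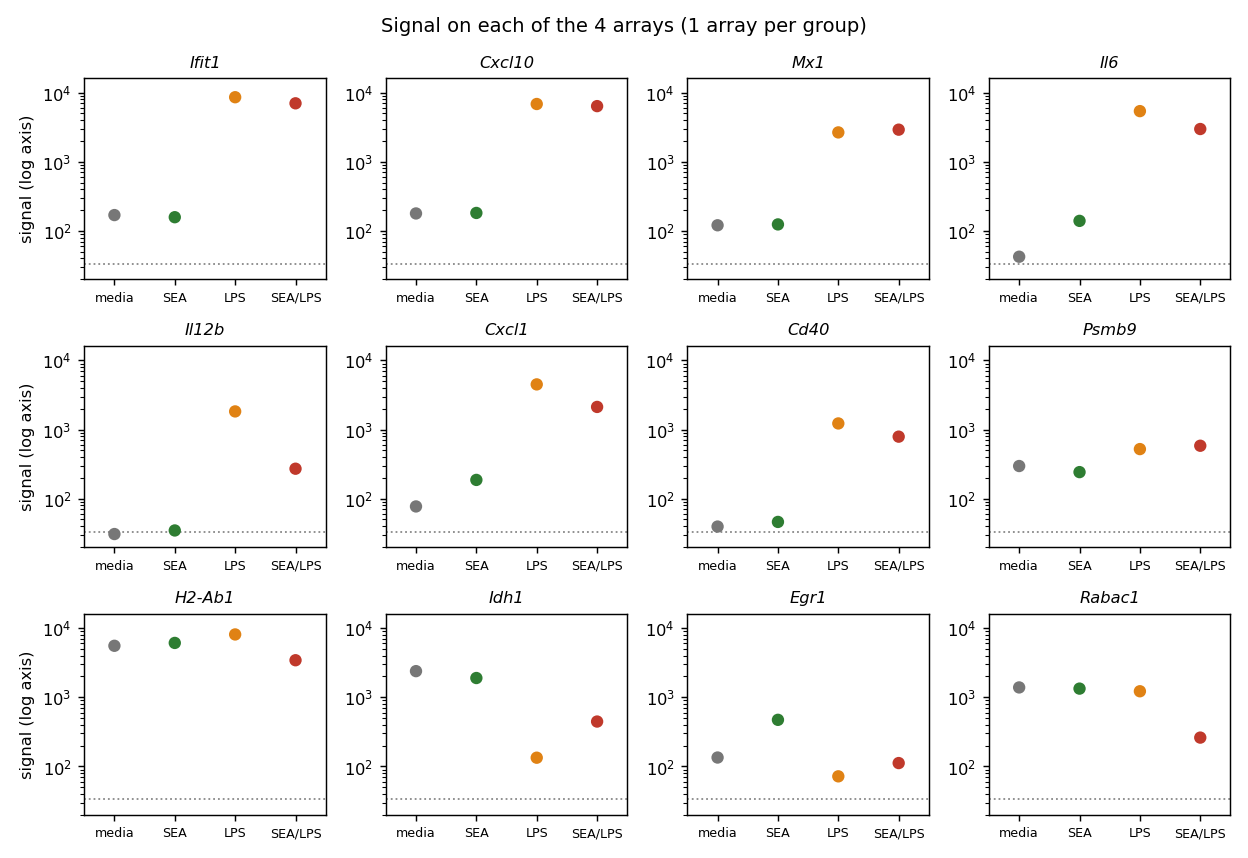
Signal of 12 genes on each of the 4 arrays, 1 array per group, on a log axis; the dotted line is the floor of 33.3. Ifit1, Cxcl10 and Mx1 were nearly as bright with SEA/LPS as with LPS, Il12b, Cxcl1 and Il6 were dimmer with SEA/LPS than with LPS, and H2-Ab1 and Rabac1 were dimmest with SEA/LPS.

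The lower genes reached smaller differences and included regulators of transcription, signalling and metabolism. Map4k1, a kinase that restrains lymphocyte receptor signalling, was the lowest among genes above the floor on both arrays. It read 263 in media and 309 with SEA, and 32.3 with LPS and 33.5 with SEA/LPS (-3.21 log2), low on both arrays with LPS. Lpin1, a phosphatidate phosphatase of lipid synthesis, was at -2.46 log2, with -2.45 on its other probe set. Vsir, which encodes the checkpoint protein VISTA, read 327 with SEA and 67.6 with SEA/LPS (-2.27 log2, with -2.68 on its other probe set). Zbtb7b, a transcription factor, was at -2.37 log2 (other probe set -0.82), Ypel3 at -2.20 and Mxd4, a Myc antagonist, at -2.39 (other probe sets -0.32 and -0.46).

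Of the 10 lowest genes, 3 were under 1.5-fold without SEA. Rabac1, a Rab acceptor of vesicle traffic, read 1389.5 in media and 1336 with SEA, and 1224 with LPS and 262 with SEA/LPS, -2.35 log2 with SEA present and -0.18 without. Only the SEA/LPS array was low, and no other probe set of Rabac1 was measured. Sars, the seryl-tRNA synthetase, read 209, 238, 164 and 37.8 (-2.65 log2), but -0.49 on its other probe set. Zfyve21 read 116, 167, 114 and 33.5 (-2.32 log2), but -0.03 on its other probe set.

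Among genes at the floor with SEA/LPS, the brightest with SEA was Dhrs3, a retinaldehyde reductase, at 272 (at least 8.17-fold lower). Myc read 190.3 in media and 231 with SEA, and 15.0 with LPS and 32.4 with SEA/LPS (at least 6.92-fold lower), so it was at the floor on both arrays with LPS. The kinase Stk10, the coactivator Ppargc1b and the GTPase activator Rap1gap were at least 6.73-fold, 6.09-fold and 5.74-fold lower. Phgdh, the first enzyme of serine synthesis, read 140.3, 221, 138 and 29.8, at least 6.64-fold lower on that probe set and -0.36 log2 on the other.

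Immediate early and AP-1 factors had a list median of -0.74 log2, and of -0.54 to -0.96 under the other scalings, -0.37 with the floor at the 60th percentile and -0.49 without probe sets able to cross-hybridise. Of 21 members 1 was higher and 4 lower, against 6.77% lower of all genes, and 10 were lower on the hybridisation controls and 3 after quantile normalization. On the hybridisation controls 1118 of 9083 genes were lower. Egr1, a growth factor response gene, read 135 in media and 473 with SEA, and 72.0 with LPS and 112 with SEA/LPS (-2.08 log2), brightest with SEA. Klf2, which keeps myeloid cells quiescent, and Fos were at -1.26 and -1.23 log2. Ier5 was the member that was higher (2.60-fold). Without SEA, 4 of 21 members were higher and 6 lower (median -0.41 log2). Genes of endoplasmic reticulum and amino acid stress had 1 of 21 members higher, the cystine carrier Slc7a11 (2.40-fold), and 5 lower (median -0.31 log2). Beside Phgdh, the lower ones were Sesn2 (at least 4.40-fold), Herpud1 (-1.62 log2), the amino acid carrier Slc7a5 (-1.16 log2) and Atf4, a central transcription factor of that response. Atf4 read 950.4 in media and 932 with SEA, and 986 with LPS and 357 with SEA/LPS (-1.38 log2), but -0.05 on its other probe set. Without SEA, 4 of 21 genes of this stress list were higher and 7 lower (median -0.10 log2).

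The lists of the tricarboxylic acid cycle, glycolysis and the cell cycle had medians below that of all genes on the values as deposited. The tricarboxylic acid cycle list includes genes of cytosolic enzymes such as Idh1. Of its 20 measured genes, 3 were lower and 0 higher (median -0.43 log2, -0.22 to -0.64 under the other scalings). There was 1 lower at the 75th percentile and after quantile normalization, and 5 on the hybridisation controls. Without SEA, 6 of 20 genes of this list were lower and 0 higher (median -0.78 log2). Idh1, the cytosolic isocitrate dehydrogenase, read 2390.4 in media and 1901 with SEA, and 134 with LPS and 446 with SEA/LPS (-2.09 log2, with -2.67 on its other probe set). Idh2 and Fh1 were at -1.07 and -1.02 log2. Glycolysis and hypoxia genes had 1 of 21 higher, the angiogenic factor Vegfa (2.46-fold), and 1 lower, the lactate carrier Slc16a3 (-1.56 log2), with a median of -0.35, and 4 were lower on the hybridisation controls. Vegfa was at 0.58 log2 on its other probe set, under 2-fold. With all probe sets of a gene averaged, 0 of the list were higher and 2 lower. Without SEA, 0 of 21 were higher and 4 lower (median -0.18 log2). Of 29 cell cycle genes, 3 were lower, Cdc20 (-1.53 log2), Mcm7 (-1.27) and Cdk4 (-1.14), with a median of -0.54 (-0.31 to -0.72 under the other scalings). Of 30 measured on the hybridisation controls, 9 were lower, against 1118 of all 9083 genes measured under that scaling. The 2 higher were Ccnd2, a G1 cyclin (3.30-fold), and Cdkn1a, the inhibitor p21 (2.46-fold). Without SEA, 7 of 31 cell cycle genes were lower and 1 higher (median -0.67 log2).

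The LPS differences with and without SEA ran along each other but were not equal in size. Without SEA, 574 of 9130 measured genes (6.29%) were higher with LPS than in media and 799 (8.75%) lower. That split also turned with the scaling. It was 721 and 584 at the 75th percentile, 631 and 701 after quantile normalization, and 250 and 3031 on the hybridisation controls. The median LPS difference without SEA was -0.08 log2 as deposited and -0.71 on those controls. Counts and overlaps that use LPS over media thus depend on the scaling. The Pearson correlation of both differences across the 8577 genes measured in both was 0.688, a description across genes, which are not independent replicates and share the probe design. Of the 442 genes higher with SEA present, 317 (71.7%) were also higher without it, which is 55.2% of the 574. Of the 604 lower genes, 258 (42.7%) were also lower without SEA, or 32.3% of the 799. The 125 genes higher with SEA present alone had a median of 1.17 log2 there and 0.67 without SEA, and 108 of them had the same sign. The 257 higher without SEA alone had 1.19 there and 0.42 with SEA present, and 179 had the same sign. Of the 346 genes lower with SEA present alone, 249 had the same sign without it. Of the 541 lower without SEA alone, 491 had the same sign with SEA present. No share of same signs over all genes stands beside these counts, so they are given as counts only. The median difference of all measured genes was -0.19 log2 with SEA present and -0.08 without it.

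No gene was higher by 2-fold with SEA present and lower by 2-fold without it. There were 7 that were lower with SEA present and higher without it, 3 of them above the floor on all 4 arrays. These 3 were D8Ertd738e, a small conserved protein (204 in media and 584 with SEA, and 428 with LPS and 254 with SEA/LPS), Msgn1 (58.6, 74.2, 130.3 and 36.3) and Rrp7a, of ribosome assembly (128, 174, 257 and 73.0). The others, Gckr, Rcor2, Rtbdn and Wrn, were at the floor on at least 1 array.

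**Figure D3:**
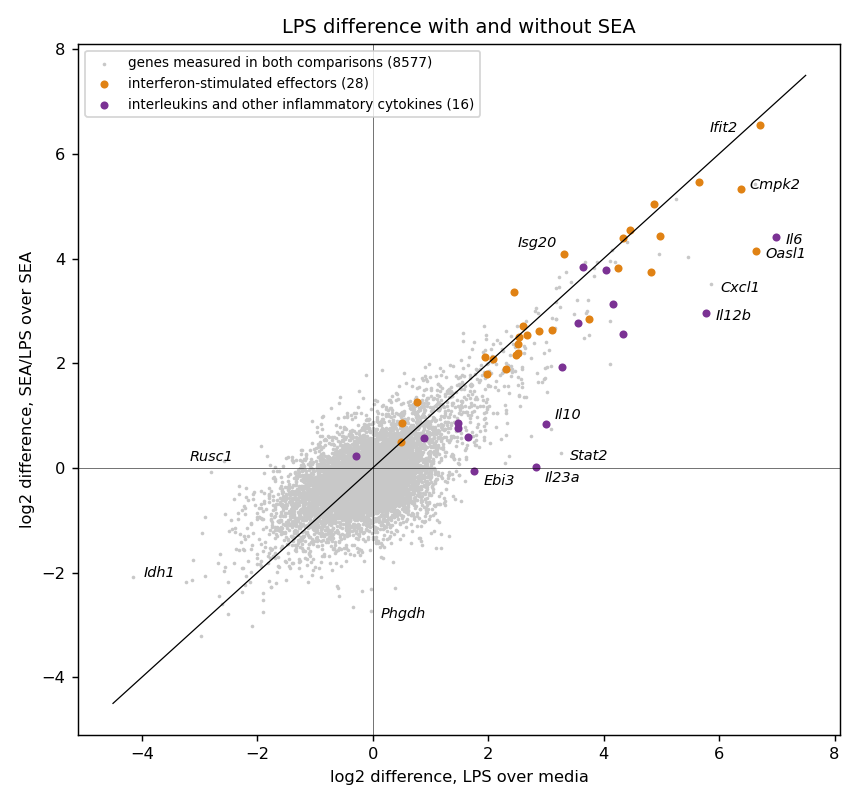
Each point is 1 of 8577 genes measured in both comparisons, with the log2 difference of LPS over media on the x axis and of SEA/LPS over SEA on the y axis; the solid line marks equal differences. Orange points are 28 interferon-stimulated effectors and purple points 16 inflammatory cytokines. Most orange points lie near the line (median gap -0.15) and most purple points below it (median gap -1.04).

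The gap between both differences, SEA/LPS over SEA minus LPS over media, had a median of -0.05 log2 over all genes, with 53.4% of genes below 0 and 7.09% below -1. It moved with the scaling, to 0.02 at the 75th percentile, 0.01 after quantile normalization and 0.39 on the hybridisation controls, so each list is to be read against that shift. The gap also differed by the direction of the LPS difference. The 574 genes higher with LPS over media had a median of 1.51 log2 there and 1.12 with SEA present. The 799 lower genes had -1.29 and -0.75. A list that LPS raised or lowered is to be read against these too, and whether its gap went beyond them was not tested. For inflammatory cytokines the median gap was -1.04, with 9 of 16 below -1, and it was -0.94, -0.90 and -0.55 under those scalings. For chemokines it was -0.41, with 5 of 18 below -1 (-0.34, -0.27 and -0.01). For interferon-stimulated effectors it was -0.15, with 3 of 28 below -1 (-0.08, -0.18 and 0.30), near that of all genes under each scaling. For uptake receptors it was 0.37, with 2 of 23 below 0 (0.44, 0.44 and 0.85), or 6 of 23 with all probe sets of a gene averaged. Cd36, Fcgr3, Mrc1, Itgam and Clec4a2 are examples, at -1.21, -1.06, -1.18, -1.11 and -1.52 log2 without SEA and -0.80, -0.52, -0.38, -0.22 and -0.36 with it.

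Stat2, Il6 and Cxcl1 had the lowest gaps among genes above the floor on all 4 arrays, at -2.97, -2.58 and -2.36 log2. For Il6 and Cxcl1 the gap joined a brighter SEA array than media array to a dimmer SEA/LPS array than LPS array. Sars, Zfyve21, D8Ertd738e, Rrp7a and Cyp4f13, a cytochrome, followed at -2.30 to -2.22. The highest was Rusc1, at 455 in media and 600.3 with SEA, and 65.5 with LPS and 568 with SEA/LPS (2.72 log2), but its other probe sets gave -1.24, -0.96 and -1.73 for SEA/LPS over SEA against -0.08 here. Idh1 followed (2.07 log2), since its LPS difference was -4.16 log2 without SEA and -2.09 with it. Zdhhc12, Olfm1, Crhr1, Pom121, Clec5a, an activating myeloid receptor, and Klf10, a factor induced by TGF-beta, lay between 1.85 and 1.99. For SEA/LPS over SEA, other probe sets gave -0.65 and -1.24 log2 for Olfm1, -0.30 for Crhr1 and 0.29 for Pom121.

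Other probe sets of the same gene gave a limited gauge of single values, since they share the RNA and the array. Another probe set was counted if it passed the floor on SEA or on SEA/LPS. One at the floor on 1 of these arrays could thus go only 1 way, so part of the agreement is fixed by the rule. Of the 181 higher genes with another probe set past the floor, 164 (90.6%) went the same way there, against 37.3% of all 3011 genes with another probe set. Of 176 lower genes, 164 (93.2%) went the same way, against 62.7%. The median difference was 1.44 log2 on the probe sets used and 0.91 on the others for higher genes, and -1.24 and -0.67 for lower genes, and the others passed 2-fold for 87 and 55 genes.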

How the data were processed

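Total RNA of 4 samples was measured on mouse Affymetrix arrays with 22690 probe sets. The deposited table holds, judged from its values, linear 1-colour intensity values that the authors had already scaled, since the trimmed mean (2% off each end) is 150 on every array. No source used here gives the software, background step or scaling rule. Such scaling hides a difference in total RNA between groups. Probe sets were named through the platform annotation: 64 were controls, 20380 had 1 symbol, 691 several and 1555 none, and Entrez identifiers of 20351 matched a gene table that was used to update names.

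Values were used without further scaling, in Python 3.11.15 with numpy 2.4.6, pandas 2.3.3 and matplotlib 3.10.9. The floor, a signal of 33.3, is the 40th percentile over all signals of the 4 arrays together. A gene with several probe sets was read from the one whose floored log2 signal, averaged over the 4 arrays, was highest. With 1 sample per group no test, p-value or standard deviation was possible, and precision is limited by this number of arrays. Alternatives were 3 other scalings, other floors, log2 of signal plus 16, other rules for probe sets and 3-fold in place of 2-fold.

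The 37 gene lists hold 681 symbols; probe sets name 592 of their genes and 538 were measured; some genes stand in more than 1 list, and lists are given by counts and medians beside those of all genes, with values at the floor counted at their bound. The members and lists were chosen with earlier results of these data known. Named genes are the 10 highest and 10 lowest of those above the floor with SEA and with SEA/LPS, the 6 brightest bounds each way, up to 6 members of a list with the largest difference, the 8 highest and 8 lowest gaps between both LPS differences, genes at least 2-fold in opposite directions, and Il10. Outside this rule, and chosen after their values were seen, are Adar, Cd36, Cd3d, Cd3e, Cd3g, Cd74, Cd79b, Cd86, Cdh5, Clec4a2, Ebi3, Fcgr3, Flt3, Gbp3, Gckr, H2-Aa, H2-D1, H2-K1, Icam1, Il12a, Il1b, Il1rn, Il23a, Isg20, Itga5, Itgam, Itgax, Lyz2, Mrc1, Nos2, Oas2, Oasl1, Pax5, Pecam1, Psmb8, Rcor2, Rtbdn, S100a9, Wrn and Zbtb46.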

Additional observations from a re-analysis of the deposited data

Results flagged for a closer look

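For 3 genes above the floor on all 4 arrays, the LPS difference was past 2-fold in opposite directions with and without SEA. D8Ertd738e was at -1.20 log2 for SEA/LPS over SEA and 1.07 for LPS over media, and its other probe set gave -0.10 for the first. Msgn1, a transcription factor of the embryonic mesoderm, was at -1.03 and 1.15. Rrp7a was at -1.25 and 1.01. With 1 array per group the difference between both comparisons was not tested. Among the 7142 genes above the floor on all 4 arrays these were the only ones past 2-fold in opposite directions.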

How the results depend on the processing

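Of 125 named genes past 2-fold, 1 to 19 fell under it in any one of the alternatives that kept all of them, 8 of 103 did without probe sets able to cross-hybridise, and 1 changed sign: Dhx58, at -0.47 log2 with the floor at the 20th percentile, where another probe set represents it. The count of lower genes was 361 after scaling to the 75th percentile, 395 after quantile normalization, 1118 on the hybridisation controls, 1237 with the floor at the 20th percentile, 306 at the 60th and 110 at 3-fold. The count of higher genes was 732 with the floor at the 20th percentile, 191 at 3-fold and 673 with each probe set counted, and stayed within 1.5 times of 442 under the other settings. Genes higher in both LPS comparisons numbered 189 on the hybridisation controls and 156 at 3-fold. Genes lower in both numbered 151 at the 75th percentile, 732 on the hybridisation controls, 430 and 133 with the floor at the 20th and 60th percentile, and 49 at 3-fold. A lower floor lets dimmer signals count and a higher threshold leaves fewer genes by construction; for the other changes the cause was not tested. Marker list medians changed sign for macrophages and monocytes at the 75th percentile (-0.19 to 0.02), for T cells with the floor at the 60th percentile (-0.30 to 0.09) and for endothelium on the hybridisation controls and with all probe sets averaged (0.30 to -0.21 and -0.02). For neutrophils (-0.11) they did at the 75th percentile, after quantile normalization and with the floor at the 20th and 60th percentile (0.10, 0.12, 0.31 and 0.15), and for mast cells and basophils (-0.03) under the first 3 of these (0.17, 0.10 and 0.39). Counting each probe set by itself was not run for overlaps, lists or single genes, which need 1 value a gene. No paired analysis was possible because each group has 1 sample, and leaving out a replicate was not possible for the same reason.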

Other observations

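Several lists are not described above. Their counts are again to be read against 4.96% higher and 6.77% lower of all genes. Chemokine receptors and migration genes had a median of -0.22 log2, against -0.19 for all genes. It was -0.01 at the 75th percentile and -0.28 after quantile normalization, against 0.00 and -0.07 for all genes. On the hybridisation controls it was -0.43, against -0.39. Of 20 members, 4 were higher and 3 lower. The higher ones were Ccr7, the chemerin receptor Ccrl2 (3.89-fold), the formyl peptide receptor Fpr2 (3.74-fold) and Itga5. The lower ones were Ccr2, which brings monocytes out of the marrow (277 with SEA and 81.3 with SEA/LPS, -1.77 log2), Ackr3 (-1.39) and Rgs2 (-1.26). The other probe sets of Ccr2 and Rgs2 gave -0.91 and -0.98 log2, both under 2-fold. Cell death and survival genes had 5 of 19 higher and 0 lower, against 4.96% and 6.77% of all genes, or 3 and 3 on the hybridisation controls. The 5 include Casp4, the cytosolic LPS sensor (5.42-fold), Cflar, an inhibitor of caspase 8 (5.26-fold), and Casp1 (2.27-fold), and the list had a median of 0.02 that changed sign on the hybridisation controls (-0.20). Nlrp3 read 463 with SEA and 923 with SEA/LPS, just under 2-fold.

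Cholesterol genes had 2 of 18 higher, Ch25h, which makes 25-hydroxycholesterol (8.02-fold), and Idi1 (2.87-fold), and 1 lower, Sqle (-1.37 log2), with a median of -0.18 (0.03 at the 75th percentile). The lysosome list had 2 of 24 lower, against 6.77% of all genes, and a median of -0.27. These 2 were Tfeb, a regulator of lysosomal genes (at least 3.57-fold), and Gusb (-1.06 log2). Heat shock genes had 2 of 17 higher, Dnajb4 (2.30-fold) and Hspa1b (2.11-fold), and 1 lower, Dnajb1 (-1.34 log2), with a median of 0.00. Other probe sets gave 0.53 log2 for Dnajb4, 0.93 and 0.98 for Hspa1b and -0.61 for Dnajb1, all under 2-fold. With all probe sets of a gene averaged, 0 of 17 were higher and 0 lower. On the hybridisation controls 0 were higher and 2 lower. Oxidative phosphorylation (23 genes) and antioxidant genes of the Nrf2 pathway (18 genes) had 0 past 2-fold either way, with medians of -0.17 and -0.06 (0.04 and 0.15 at the 75th percentile). Ribosomal proteins had 1 of 14 lower, the dim Rpl12 (-1.04 log2), and a median of -0.08 (0.12 at the 75th percentile). Dendritic cell identity genes had 3 of 18 higher, Tcf4 (4.84-fold, the same way on all 4 of its other probe sets), Relb and Runx3, with a median of 0.03 (-0.06 after quantile normalization and -0.18 on the hybridisation controls).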
